A study of Rattus norvegicus with 13 samples.

Results

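Dll1 (delta like canonical Notch ligand 1) and Jag1 (jagged canonical Notch ligand 1) are 2 of the 14506 genes measured in this series. They were matched by the gene symbol of the array annotation, with 1 probe set each. The pair had been picked because Dll1 was higher, and Jag1 lower, in skin-derived precursors (SKPs) than in mesenchymal stromal cells (MSCs), so that difference is described here and not tested. The cells came from adult Sprague Dawley rats, were grown in culture and were profiled with the Rat Gene 1.0 ST array of Affymetrix. There were 3 isolates each of dorsal trunk, facial and ventral trunk SKPs and 4 isolates of MSCs, 13 arrays in all. The labels call the SKP isolates of a region independent of each other, give no treatment and state for every group that the cells had been passaged 2 times. SKPs are dermal precursors that grow in culture and resemble neural crest cells, and the title of the series asks whether such a cell arises alike from skin of different developmental origins. The tissue that gave the MSCs, the culture media and any pooling of animals are unknown, as the sources used here do not give them.

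Notch signalling passes between touching cells. A Delta-type or Jagged-type ligand in the membrane of one cell binds a Notch receptor on its neighbour, endocytosis of the ligand (driven by the ubiquitin ligases Mib1 and the Neuralized proteins) exposes a cleavage site, and the proteases Adam10 or Adam17 and then gamma-secretase release the intracellular domain, which joins Rbpj and a Mastermind protein at target genes such as those of the Hes and Hey families. Fringe enzymes add sugars to the receptor and change its preference between Delta and Jagged ligands. In skin and hair follicle, Notch signals act in dermal papilla and epidermis, and in vessel walls Jag1 and Notch3 act in mural cells.

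The sequence upstream of each gene is shown because the pair differed in opposite directions between the cell types, and because Rbpj binds sites with the core letters TGGGAA. Each is the 250 bases before the start site, taken from RefSeq on assembly GRCr8, read 5′ to 3′ on the gene's strand, with capitals for the core letters on either strand and for the E-box letters CANNTG. The first lies at chr1:64993275-64993524 and the second at chr3:144894884-144895133, both on the minus strand.

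Dll1: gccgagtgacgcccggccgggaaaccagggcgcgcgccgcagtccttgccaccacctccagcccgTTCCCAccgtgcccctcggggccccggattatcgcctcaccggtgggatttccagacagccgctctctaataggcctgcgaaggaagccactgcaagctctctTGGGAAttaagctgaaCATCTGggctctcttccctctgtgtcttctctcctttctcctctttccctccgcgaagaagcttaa

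Jag1: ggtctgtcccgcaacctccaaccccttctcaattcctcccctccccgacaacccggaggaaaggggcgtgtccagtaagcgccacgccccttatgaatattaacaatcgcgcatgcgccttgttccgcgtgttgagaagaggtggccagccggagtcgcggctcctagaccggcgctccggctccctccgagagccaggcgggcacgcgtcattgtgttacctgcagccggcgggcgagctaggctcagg

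The Dll1 stretch held 2 matches to the core letters, starting at positions -185 and -82 from the start site, and 1 E-box at position -66. The Jag1 stretch held no match to either. Of 33469 rat promoters of the same length, 22.1% held the core letters and 65.5% an E-box, so neither result sets these genes apart. A match in letters is a description and says nothing of binding in these cells.

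Some arrays stood apart from others of their group. MSC arrays 1 and 2 differed by more than 2-fold at 0.758% of genes and arrays 3 and 4 at 2.25%, but arrays taken across these pairs differed at 4.61% to 6.58%. Dorsal array 3 differed from the other dorsal arrays at 7.67% and 9.55% of genes, against 2.07% between those, and facial array 3 from the other facial arrays at 4.05% and 4.23%, against 2.28%. Of 9 SKP and neural crest markers, 4 had a higher mean in every SKP group than in MSCs: Sox2 (6.77 to 7.08 against 5.27, log2), Twist1 (9.16 to 9.39 against 7.55), Ngfr and Pdgfra. Snai2 was instead highest in MSCs (8.93, against 7.50 to 8.10), and the MSC means of Nes, Pax3, Fn1 and Vim lay among those of the SKP groups. The mean of Nes was high in ventral SKPs alone (7.54, against 4.31 to 5.55 elsewhere) and that of Pax3 in facial SKPs alone (8.68, against 4.02 to 4.34). All 7 stromal markers were above background in every group. Background is the 95th percentile of the olfactory receptor genes of a group, 3.94 to 4.04 (log2), and 39 of the 42 Notch genes measured lay above it in all 4 groups. The 25th percentile of all genes of a group was 3.79 to 3.84, just below this background. The share of all genes above background was not counted, so counts above it are descriptions and do not set a list apart.

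Dll1 was expressed above background in every group and was 4.62-fold higher in SKPs than in MSCs. In dorsal SKPs its log2 levels were 6.58, 7.31 and 5.94 in isolates 1 to 3. In facial SKPs they were 7.17, 7.50 and 7.44, and in ventral SKPs 6.17, 6.72 and 6.52. The MSC isolates read 4.89, 4.48, 4.66 and 4.41. Every SKP array was above every MSC array, with 1.05 log2 units between the nearest arrays. The group means were 7.37 ± 0.17 (SD, n = 3) in facial SKPs, 6.61 ± 0.69 (n = 3) in dorsal SKPs, 6.47 ± 0.28 (n = 3) in ventral SKPs and 4.61 ± 0.21 (n = 4) in MSCs. Relative to MSCs these are 6.79-fold, 3.99-fold and 3.63-fold higher levels. Over all genes, 6.60% were higher in SKPs with no overlap between arrays, and 216 genes had a larger positive difference than Dll1. These are bulk RNA values, in which fewer cells of a type and less RNA per cell cannot be told apart.

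Jag1 ran the other way and was 8.65-fold lower in SKPs than in MSCs. Its log2 levels were 6.04, 6.66 and 7.74 in dorsal isolates 1 to 3. They were 7.64, 7.08 and 7.63 in facial SKPs and 7.90, 7.85 and 7.90 in ventral SKPs. The MSC isolates read 8.49, 9.77, 11.85 and 11.86. No SKP array reached the lowest MSC array, but only 0.59 log2 units separated the nearest arrays, and the MSC isolates themselves spread over more than 3 log2 units. The means were 10.49 ± 1.66 (n = 4) in MSCs, 7.88 ± 0.03 in ventral, 7.45 ± 0.32 in facial and 6.81 ± 0.86 in dorsal SKPs (SD, n = 3 each). Levels were thus 6.11-fold, 8.24-fold and 12.8-fold lower in ventral, facial and dorsal SKPs than in MSCs. Over all genes, 6.00% were lower in SKPs with no overlap, and 52 genes had a larger negative difference than Jag1.

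**Figure D1:**
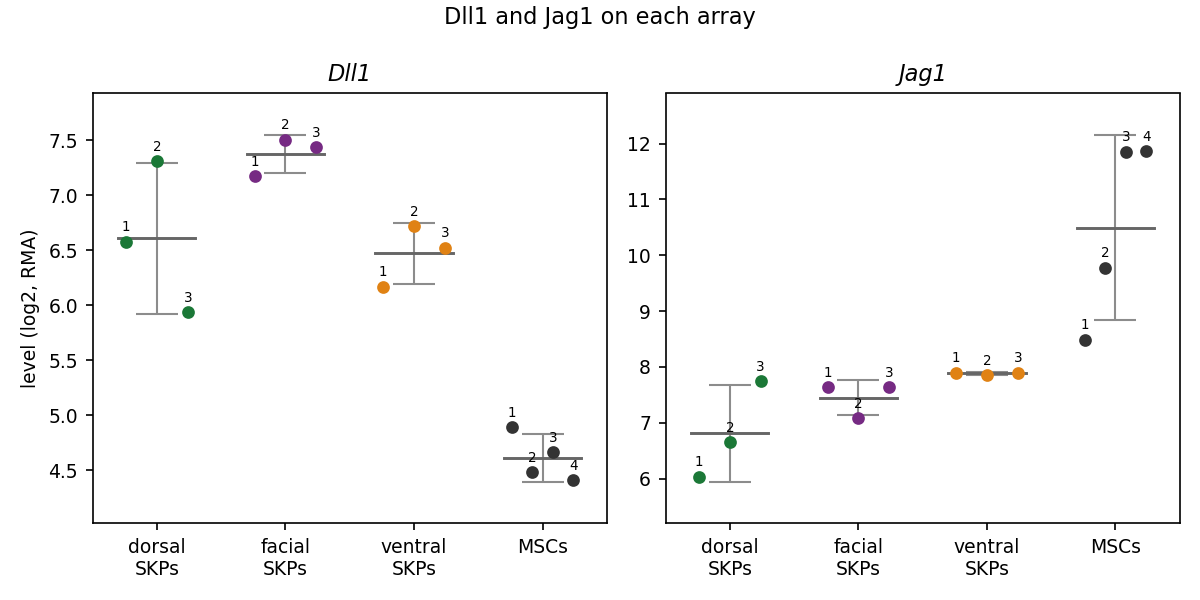
Log2 RMA level of Dll1 (left) and Jag1 (right) on each of the 13 arrays, with isolates numbered, a bar at the group mean and whiskers of 1 SD; the vertical scales differ and levels of the 2 genes are not comparable. All 9 SKP points lie above the 4 MSC points for Dll1 and below them for Jag1, and MSC isolates 3 and 4 lie above isolates 1 and 2 for Jag1.

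The size of the Jag1 difference rested on which MSC isolates were used, and that of Dll1 did not. Without MSC arrays 3 and 4 Jag1 was 3.37-fold lower in SKPs, and without MSC arrays 1 and 2 it was 22.2-fold lower. The same choices gave 4.38-fold and 4.86-fold for Dll1. Smooth muscle and pericyte markers, of which all 11 were measured and above background in every group, had a mean level that moved with Jag1. It was 7.73, 7.84, 8.87 and 9.10 in MSC isolates 1 to 4, against 5.71 to 6.54 on the SKP arrays, and 7 of the 11 were higher in both isolates 3 and 4 than in 1 and 2. The members did not move alike: 8 of 11 had a higher mean in MSCs than in every SKP group. The muscle proteins Tagln (12.3 against 4.52 to 5.04) and Acta2 (12.2 against 7.80 to 7.85) were among these, and so was Cspg4 by under 0.1 (9.20 against 8.90 to 9.19). Mcam (8.67 against 5.62 to 7.49), Des (6.96 against 4.27 to 5.52), Abcc9 (5.30 against 4.12 to 5.16), Myh11 and Cnn1 were the others. Rgs5, Kcnj8 and Pdgfrb were instead highest in ventral SKPs (5.77, 4.75 and 11.4, against 4.61, 4.30 and 11.2 in MSCs). Macrophage and leukocyte markers (13 measured) moved with the SKPs, at a mean of 4.40 to 4.91 on MSC arrays, 4.52 to 7.36 in dorsal, 5.67 to 6.08 in ventral and 6.49 to 10.1 in facial SKPs, and 12, 12 and 13 of them were above background in those SKP groups and 10 in MSCs, where the leukocyte surface marker Ptprc was below it. With their mean as a covariate the Dll1 difference was 2.10 and the Jag1 difference -2.66 (log2). Hypoxia and glycolysis genes split the MSC isolates the other way, with means of 9.43, 9.18, 8.58 and 8.68 in isolates 1 to 4. Of these genes, 13 of 16 were higher in both isolates 1 and 2 than in 3 and 4, and 1 was lower. The share of all genes with either split of the MSC isolates was not counted, so the 7 of 11 and the 13 of 16 are descriptions only. All 9 cell cycle genes measured were higher in MSCs than in every SKP group (list mean 8.24 against 5.88 to 6.37). The part of smooth muscle-like cells, or of hypoxia and cell cycle states, in the Jag1 values was not tested.

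Within each array, Dll1 minus Jag1 gives the balance of the pair, of which only the change between arrays can be read, since the probe sets differ. Dorsal isolates gave 0.54, 0.65 and -1.80 (log2), facial isolates -0.47, 0.42 and -0.19 and ventral isolates -1.73, -1.13 and -1.38. In MSCs it was -3.60, -5.30, -7.19 and -7.45. The means were -0.20 ± 1.39, -0.08 ± 0.45 and -1.41 ± 0.30 (SD, n = 3) and -5.88 ± 1.80 (n = 4). Ventral SKPs had the lowest mean balance among SKPs, and dorsal isolate 3 lay below every ventral isolate. Across the 3 regions the balance did not pass the exact permutation test (F = 2.20, p = 0.221, adjusted over 3 quantities 0.221, two-sided by the F ratio). Without dorsal isolate 3 its exact permutation p was 0.0107, and leaving out each SKP array in turn gave p from 0.0107 to 0.414.

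Among SKPs, facial cells had the highest mean of Dll1, and no difference between regions passed the test over all genes. Facial minus ventral SKPs gave 0.90 (SE 0.28, 95% interval 0.29 to 1.52, adjusted p = 0.0807), with all 3 facial arrays above all 3 ventral arrays, as were the arrays of 16.8% of all genes. Facial isolates were 7.17 or higher and ventral isolates 6.72 or lower. That difference passed with array weights (adjusted p = 0.0152), without dorsal isolate 2 (0.0248) and without dorsal isolate 3 (0.0223). Its range when 1 array was left out was 0.0223 to 0.255. Dorsal minus facial SKPs gave -0.77 (SE 0.28, interval -1.38 to -0.15, adjusted p = 0.244), and dorsal isolate 2 lay within the facial range. Without that isolate the difference was -1.12 (adjusted p = 0.0374). Dorsal minus ventral SKPs gave 0.14 (interval -0.48 to 0.75, adjusted p = 0.838). In the order facial, dorsal, ventral, no pair of neighbours passed the test over all genes, although the interval of facial against dorsal SKPs leaves out 0. The exact permutation test over the 3 regions gave p = 0.132 (adjusted 0.198), where the smallest p that the 280 splits allow is 0.00357.

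Jag1 had its means in another order, ventral, facial and dorsal, again without a difference that passed. All 3 ventral arrays were above all facial and all dorsal arrays, as holds for 19.6% and 13.4% of all genes in those directions, and the ventral isolates lay within 0.1 log2 unit of each other. Facial minus ventral SKPs gave -0.43 (SE 0.76, interval -2.08 to 1.22, adjusted p = 0.809) and dorsal minus ventral -1.07 (interval -2.73 to 0.58, adjusted p = 0.467). Dorsal minus facial gave -0.64 (interval -2.29 to 1.01, adjusted p = 0.750). The fit shares 1 spread with the MSC arrays, which vary most for Jag1, and with SKP arrays alone the adjusted p values were 0.542, 0.134 and 0.455 in the same order. The permutation test, which used SKP arrays alone, gave p = 0.0714 (adjusted 0.198). A difference that misses the threshold with such intervals does not show that the regions have like levels.

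Dll1 and Jag1 were not clearly related across the 9 SKP arrays. Pearson's r was -0.28 (exact permutation p = 0.473, adjusted over the 2 coefficients 0.473) and Spearman's rho -0.58 (p = 0.108, adjusted 0.216). Without dorsal isolate 3 and facial isolate 2, the arrays farthest from the median of Dll1, r was -0.15 (exact permutation p = 0.728). Leaving out 1 array at a time gave r from -0.64, without dorsal isolate 1 (exact permutation p = 0.0761), to -0.17, without dorsal isolate 2 (p = 0.733). With each region's mean subtracted, r was -0.57 (p = 0.394 over 216 permutations within regions). Dorsal isolate 3, which had the lowest Dll1 and the highest Jag1 of the dorsal arrays, also had the highest mean of hypoxia and glycolysis genes of any array, 10.08 against 8.65 and 8.73 in the other dorsal isolates. Its mean of cell cycle genes was 4.82, against 7.13 and 6.60. The part of these states in its ligand values was not tested.

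**Figure D2:**
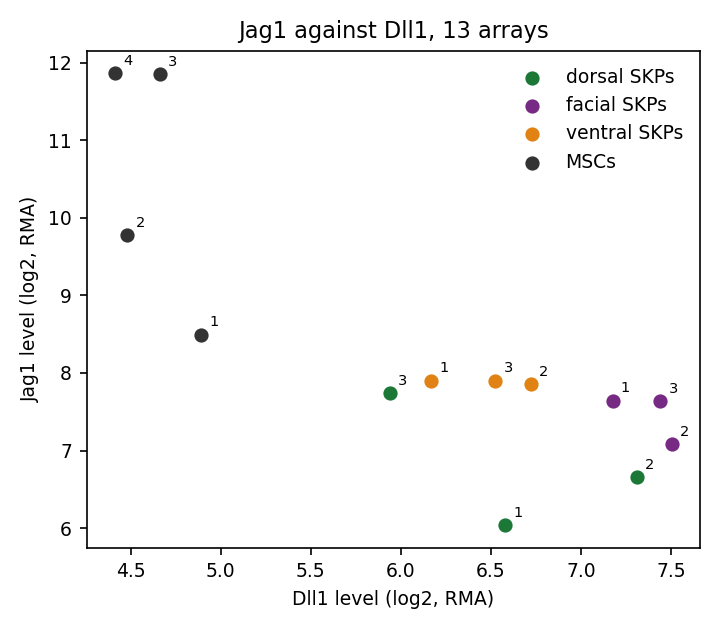
Log2 level of Jag1 against that of Dll1, 1 point per array, coloured by group and numbered by isolate. The 9 SKP arrays lie apart from the 4 MSC arrays, whose Dll1 levels stay between 4.41 and 4.89 while Jag1 runs from 8.49 to 11.86.

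The genes whose levels followed each ligand most closely over the 13 arrays were found by the mean absolute difference after each gene's own mean was subtracted. For Dll1 these were Peli2 (0.226 log2 units), Lrp5 (0.233), Gpc3 (0.245), Axin2 (0.247) and Npas2 (0.290), against a median of 1.00 over all genes. Lrp5 is a Wnt co-receptor and Axin2 a feedback inhibitor and target of Wnt signalling. For Jag1 they were Prkg1 (0.307), Fzd4 (0.410), Palmd (0.418), Cadm4 (0.476) and Prag1 (0.488), against a median of 1.33. Prkg1 is a cGMP-dependent kinase of smooth muscle and Fzd4 a Wnt and norrin receptor. All 5 had the split of the MSC isolates that Jag1 had, with Prkg1 at 6.31, 6.84, 9.19 and 8.91 and Fzd4 at 5.66, 6.21, 8.73 and 8.89 in isolates 1 to 4. Notch3 came next in the order for Jag1, at 0.505. Likeness over these arrays mostly reflects the difference between SKPs and MSCs, on which the pair was picked. The genes like Jag1 were also ranked on the MSC arrays, so sharing its split follows from the ranking and is no separate result.

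The rest of the pathway was described with a list of 49 other Notch genes, of which 40 were measured. Between SKPs and MSCs 15 of the 40 (37.5%) passed the test, 10 higher and 5 lower in SKPs. Over all genes 25.3% passed, 13.1% higher and 12.2% lower. The median difference was 0.11 over the list and -0.02 over all genes. Those called higher were Dlk2, Mib1, Furin, Adam17, Psen2, Ncstn, Psenen, Maml3, Itch and Dtx4, and those called lower were Dner, Notch3, Neurl1b, Aph1b and Numbl.

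**Figure D3:**
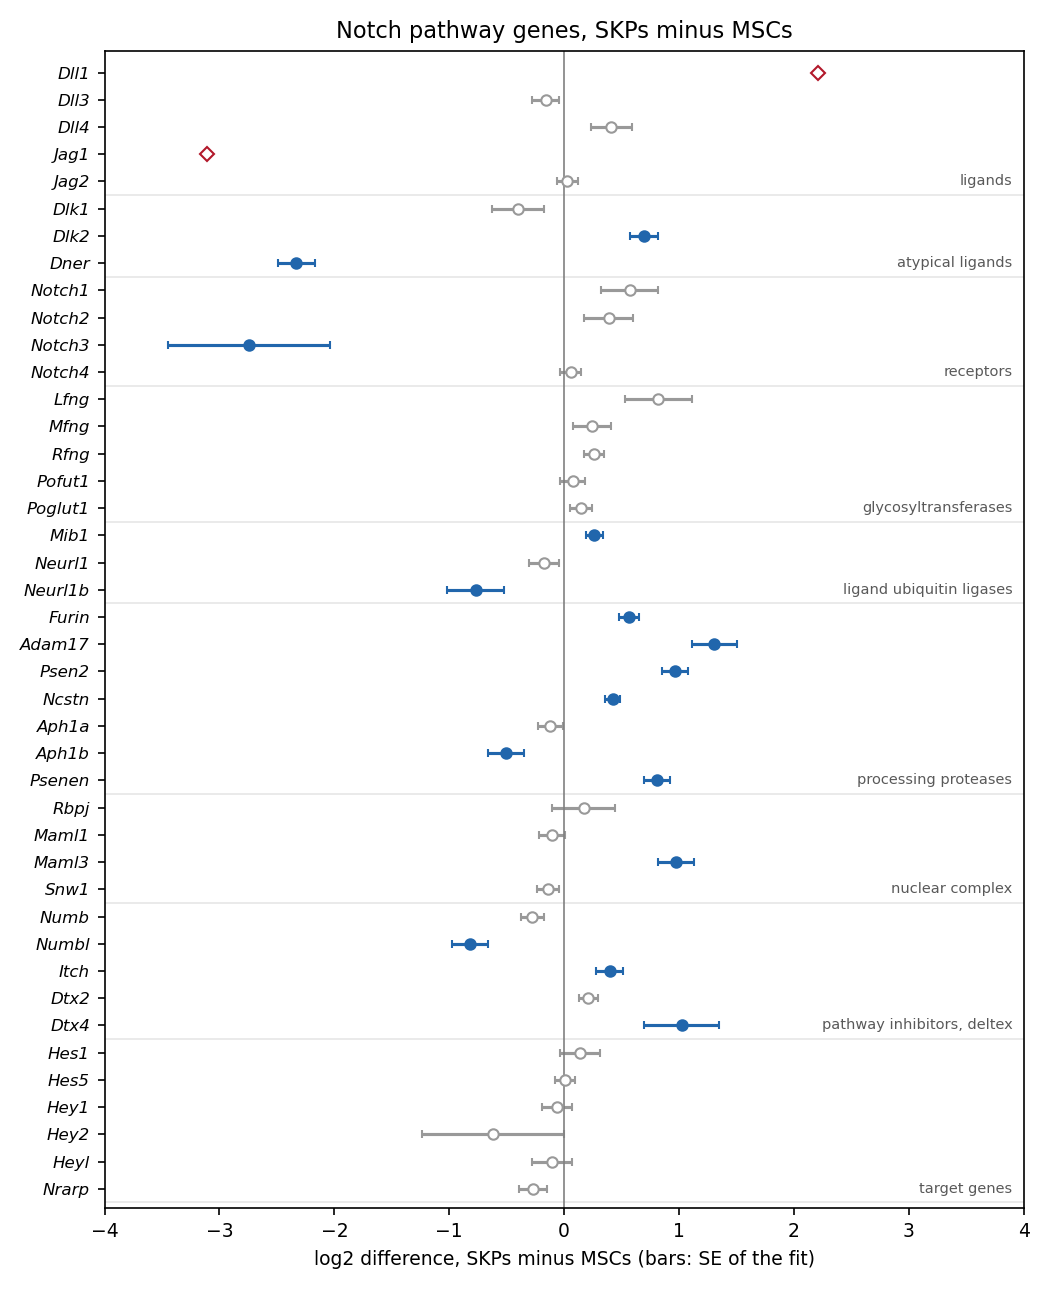
Log2 difference, SKPs minus MSCs, for each measured gene of the Notch list grouped by role, with bars of 1 SE of the fit for tested genes; filled blue points passed the test, open grey points did not, and open red diamonds are Dll1 and Jag1, given without a test. Jag1, Notch3 and Dner lie farthest to the left, and Dll1 and Adam17 farthest to the right.

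None of the 3 other canonical ligands passed over all arrays. Jag2 had means of 5.03 to 5.17 in the 4 groups, and its difference was 0.03 (95% interval -0.17 to 0.23, adjusted p = 0.855). Dll3 was below background in every group, at means of 3.71 to 3.89. Dll4, the Delta ligand of endothelial tip cells, was above background in ventral SKPs, at 4.88, 4.10 and 5.03, and below it as a mean in the other groups, at 3.58 to 3.67. Its difference from MSCs over all SKPs was 0.41 (adjusted p = 0.116), and it passed in 1 of 22 alternatives, without ventral isolate 2 (0.51, 0.0223).

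Of the 3 atypical ligands, which lack parts of the canonical receptor-binding module, Dner fell 5.03-fold in SKPs relative to MSCs. It read 8.26, 8.19, 7.89 and 7.90 in MSCs and 5.44 to 6.48 over the 9 SKP arrays, with no overlap. The log2 difference was -2.33 (SE 0.16, adjusted p = 1.3e-06, 1.02e-04 or less under every alternative). MSC isolates 1 and 2 lay above isolates 3 and 4, the reverse of their order for Jag1, but the difference was of like size without MSC arrays 1 and 2 (-2.17) and without 3 and 4 (-2.49). Dlk2 was 0.69 higher (SE 0.12, adjusted p = 0.00134), at 6.05 to 6.60 in SKPs and 5.44 to 5.86 in MSCs. Dlk1 read 6.56, 6.44, 5.26 and 5.40 in MSC isolates 1 to 4, and its difference of -0.40 (adjusted p = 0.230) depended on them. It was -0.99 (0.000372) without MSC arrays 3 and 4 and 0.18 (0.35) without 1 and 2. The MSC pairs were chosen after their split was seen. Here and below, an adjusted p without a pair is therefore a description.

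Among the receptors, Notch3, the receptor of vascular mural cells, had the pattern of Jag1. It read 5.02, 6.44, 9.34 and 9.66 in MSC isolates 1 to 4. The dorsal isolates read 3.97, 4.86 and 4.43, the facial ones 4.74, 5.08 and 4.56 and the ventral ones 5.73, 4.92 and 5.56. MSC isolate 1 lay within the SKP range, and isolates 3 and 4 far above it. The difference was -2.74 (SE 0.71, adjusted p = 0.0136). It was lost without MSC array 3 (adjusted p = 0.0517), without MSC array 4 (0.0514), without both (-0.86, 0.129) and with the leukocyte covariate (0.182). Without MSC arrays 1 and 2 the difference was -4.63 (1.76e-06), a description, since leaving out that pair removes the spread seen between the isolates.

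The other receptors did not pass between SKPs and MSCs. Notch2 averaged 9.67 in MSCs and 9.70 to 10.5 in the SKP groups (0.39, adjusted p = 0.222), which passed without MSC arrays 1 and 2 (0.89, adjusted p = 0.00362) and turned to -0.11 (0.718) without MSC arrays 3 and 4. Notch1 differed by 0.57 (adjusted p = 0.120) and Notch4 by 0.06 (adjusted p = 0.716). None of the 5 glycosyltransferases passed. The nearest was the fringe enzyme Lfng, at 0.82 (SE 0.29, adjusted p = 0.0572), which read 6.49 to 6.72 in MSCs and 6.39 to 8.30 in SKPs. It passed with array weights (0.0129), with arrays centred (0.0460) and without dorsal isolate 3 (1.00, 0.00149) or facial isolate 2 (0.0315).

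Of the 7 proteases measured that activate the receptors, 5 were called higher in SKPs and 1 lower, where 13.1% and 12.2% of all genes were. Their median difference was 0.56, against -0.02 over all genes. Adam17, the sheddase, rose 2.48-fold (log2 1.31, SE 0.20, adjusted p = 0.000441), from 8.48 to 9.51 in MSCs to 9.71 to 10.7 in SKPs. Of the gamma-secretase subunits, Psen2, a catalytic one, rose by 0.97 (SE 0.12, adjusted p = 8.85e-05), Psenen by 0.81 (adjusted p = 0.000219) and Ncstn by 0.42 (adjusted p = 0.000549). Furin, which cuts the receptor on its way to the surface, rose by 0.56 (adjusted p = 0.000625). These 5 calls were kept under every alternative tried. Aph1b fell by 0.51 (adjusted p = 0.0333), a call lost in 7 of the 13 fits that left out 1 array, facial 1 or 2, ventral 1 or 3 and MSC 1, 3 or 4 (adjusted p 0.0576 to 0.119).

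Among the ligases that act on the ligands, Mib1 was 0.26 higher (adjusted p = 0.0221) and Neurl1b 0.77 lower in SKPs (adjusted p = 0.0399). Mib1 lost its call without MSC array 1, 3 or 4 (adjusted p 0.0549 to 0.0715) and with arrays centred on their medians (0.10). Neurl1b lost it when any 1 of dorsal 2 and 3, facial 1 to 3, ventral 1 and 2 or MSC 3 and 4 was left out (0.0558 to 0.146), and with array weights (0.0963). Maml3, a Mastermind co-activator, rose by 0.97 (SE 0.16, adjusted p = 0.000769), and Rbpj differed by 0.17 (adjusted p = 0.709). Rbpj read 9.37, 9.30, 8.33 and 7.98 in MSC isolates 1 to 4, and its difference was 0.76 (0.0606) without MSC arrays 1 and 2 and -0.42 (0.294) without 3 and 4. Of the inhibitors and modulators, Numbl, a Numb-like endocytic adaptor, fell by 0.82 (SE 0.15, adjusted p = 0.00203), from 8.65 to 8.75 in MSCs to 7.29 to 8.15 in SKPs.

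Itch, a ubiquitin ligase that acts on Notch, was 0.40 higher in SKPs (adjusted p = 0.0243) and lost its call without MSC array 1, 3 or 4 (0.0569 to 0.0733) and with arrays centred (0.0653). Dtx4, a deltex protein, was 1.02 higher (adjusted p = 0.0394). It lost its call without dorsal 1 or 2, ventral 1 or 3 or MSC 1, 2 or 4 (0.0561 to 0.137), and with the leukocyte covariate the difference was 0.45 (adjusted p = 0.529) and without MSC arrays 1 and 2 it was 0.51 (0.420). Facial isolate 3 had both the highest Dtx4, 7.38, and the highest leukocyte marker mean, 10.1. Mib1, Neurl1b, Aph1b and Itch also lost their calls with the leukocyte covariate (0.0505 to 0.0837) and without MSC arrays 3 and 4 (0.134 to 0.529). Without MSC arrays 1 and 2, Mib1, Aph1b and Itch lost theirs (0.0622 to 0.105) and Neurl1b kept its call (-1.28, 0.00425). Over all genes, calls between SKPs and MSCs fell from 3672 to 2218 with the leukocyte covariate. They fell to 2781 without MSC arrays 3 and 4 and to 3035 without 1 and 2.

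No target gene passed between SKPs and MSCs over all arrays. Hes1, a target in many tissues, averaged 8.20 ± 0.50 in MSCs (SD, n = 4) and 8.24 to 8.47 in the SKP groups, a difference of 0.14 (95% interval -0.25 to 0.53, adjusted p = 0.629). Hes5 differed by 0.01, Hey1 by -0.06, Heyl by -0.10 and Nrarp by -0.27 (adjusted p 0.132 to 0.964). Without MSC arrays 1 and 2, or without 3 and 4, the sign of some turned: Hes1 gave -0.12 and 0.40, Hey1 -0.36 and 0.24, and Heyl -0.43 and 0.22. Hes5 had the same value, 5.91, on 5 arrays, Nrarp 4.84 on 4 and Hey1 5.04 on 3, so arrays could not be ranked by them. Of all genes 20.8% had a value shared by at least 3 arrays.

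Hey2 split the MSC isolates as Jag1 and Notch3 did. It read 3.76, 4.46, 7.59 and 7.25 in MSC isolates 1 to 4 and 4.33 to 5.91 over the SKP arrays. The difference over all arrays was -0.62 (95% interval -1.96 to 0.72, adjusted p = 0.523). Without MSC arrays 1 and 2 it was -2.27 (adjusted p = 0.000159), and without MSC arrays 3 and 4 it was 1.04 (adjusted p = 0.0251), so its direction depended on the isolates used. Hey1 and Nrarp also passed as lower in SKPs without MSC arrays 1 and 2, at -0.36 (0.0301) and -0.49 (0.0242). As the pairs were chosen after their split was seen, these adjusted p values are descriptions.

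**Figure D4:**
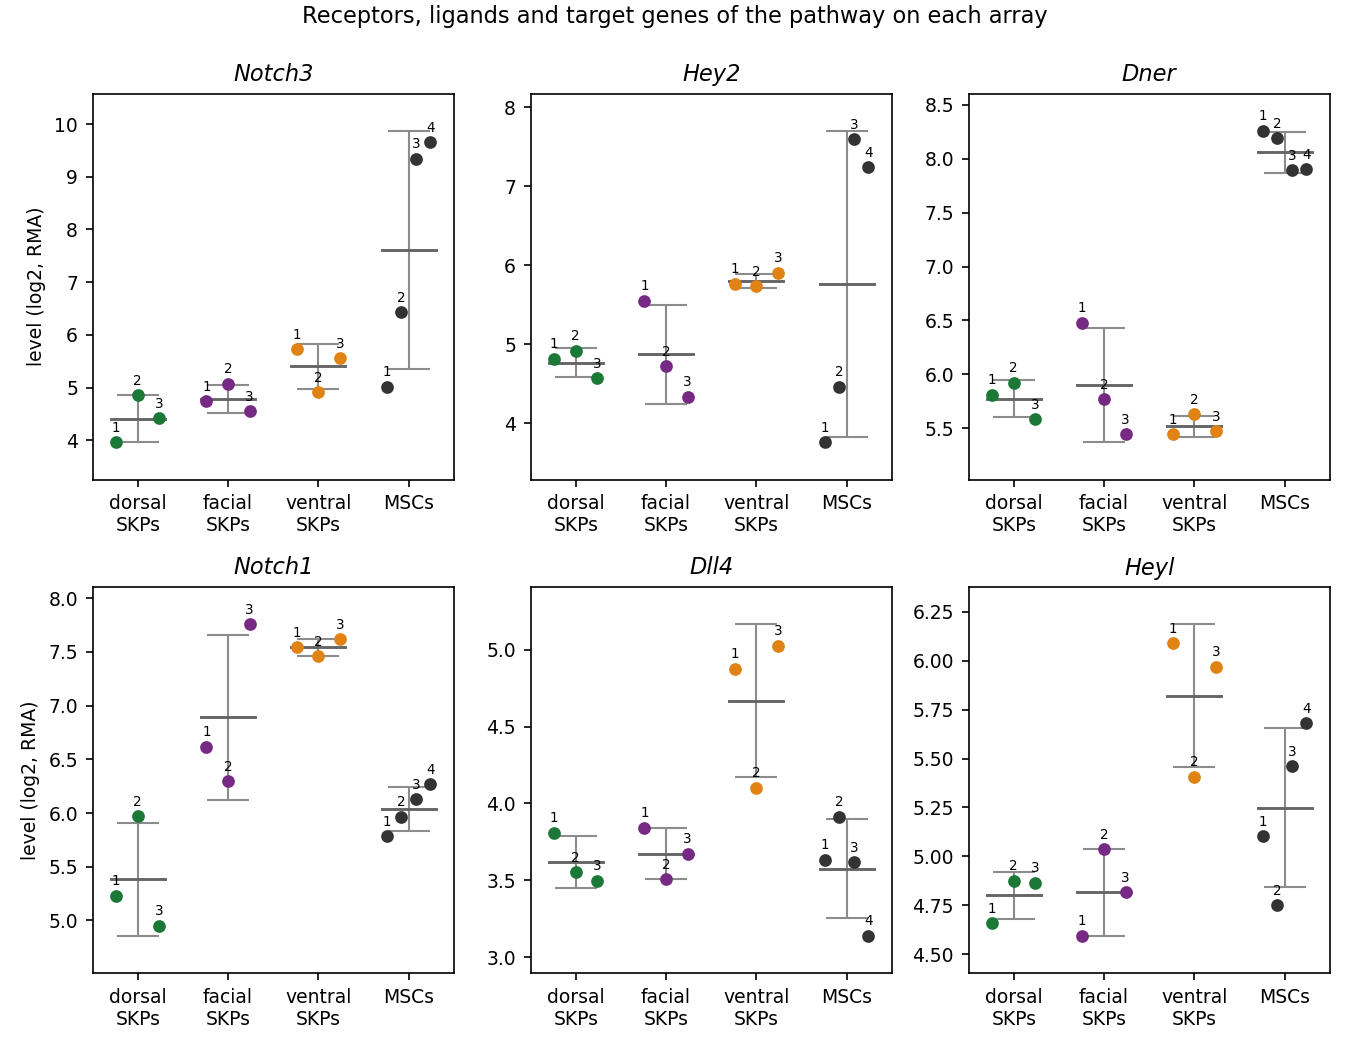
Log2 level on each of the 13 arrays for Notch3, Hey2, Dner, Notch1, Dll4 and Heyl, each on its own vertical scale, with isolates numbered, a bar at the group mean and whiskers of 1 SD. MSC isolates 3 and 4 lie above isolates 1 and 2 for Notch3 and Hey2, and ventral SKPs lie above the other SKPs for Dll4 and Heyl.

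Between SKP regions, the Notch genes that passed were mostly ones that were higher in ventral SKPs. Facial minus ventral SKPs gave 5 of 40 calls (12.5%, against 6.60% of all genes, 2.25% higher and 4.36% lower), with Maml1 higher and Dll4, Mib1, Neurl1b and Heyl lower in facial SKPs. Dorsal minus ventral SKPs also gave 5 (against 6.11% of all genes, 2.35% higher and 3.76% lower), with Psen2 higher and Dll4, Notch1, Mib1 and Heyl lower in dorsal SKPs. Between dorsal and facial SKPs limma called 0 of the 40, against 1.25% of all genes (0.462% higher and 0.793% lower), and 3 had an unadjusted p under 0.05. The comparisons share arrays of each region, so the genes named under both are not independent evidence.

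Notch1 had the firmest of these differences. Dorsal isolates read 5.23, 5.97 and 4.95, facial isolates 6.62, 6.30 and 7.76 and ventral isolates 7.55, 7.46 and 7.62. Dorsal arrays were all below the facial arrays, as for 7.05% of all genes (10.3% were all above). They were also all below the ventral arrays, as for 13.4% of all genes (15.4% were all above). Notch1 fell by 2.16 (SE 0.34, adjusted p = 0.00424) in dorsal relative to ventral SKPs, a 4.46-fold difference, and the call held under every alternative (adjusted p 0.000695 to 0.0237). Dorsal relative to facial SKPs did not pass (-1.51, adjusted p = 0.0559), but did without dorsal isolate 2 (0.0292) or facial isolate 2 (0.0360). Facial relative to ventral SKPs gave -0.65 (0.288), and passed without facial isolate 3 (-1.08, 0.0454). MSCs read 5.79 to 6.27, within reach of the highest dorsal isolate and below every facial and ventral isolate.

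Dll4 differed by -0.99 (adjusted p = 0.0306) in facial and -1.05 (adjusted p = 0.0249) in dorsal relative to ventral SKPs, against groups whose means lay below background. Heyl, a Hey-family target, read 5.41 to 6.09 in ventral and 4.59 to 5.04 in the other SKPs, and fell by 1.00 (adjusted p = 0.0276) in facial and 1.02 (0.0267) in dorsal SKPs relative to ventral SKPs. All 9 endothelial markers measured were above background in ventral SKPs, against 4 in each other group. Their mean level was 5.01 to 5.59 in ventral, 3.93 to 4.21 in dorsal and 4.19 to 4.51 in facial SKPs, and 4.08 to 4.51 in MSCs. Pecam1 averaged 6.19 in ventral SKPs and was below background in the other groups, as were Cdh5, Kdr, Emcn and Tek. Tie1, Esam, Cldn5 and Egfl7 were above background in every group. Cldn5 differed little (4.91 in ventral SKPs, against 4.54 to 4.61 elsewhere). Egfl7 was instead highest in MSCs (6.90, against 5.76 to 6.19 in the SKP groups). The part of endothelial cells in these Notch values was not tested. Dll4 lost its facial call without any 1 facial array or ventral 1 or 3 (0.0548 to 0.124) and its dorsal call without dorsal 2 or 3 or ventral 1 or 3 (0.0599 to 0.111). Heyl lost them without facial 1 or 3 or ventral 1 or 3 (0.0760 to 0.120) and without dorsal 1 or 2 or ventral 1 or 3 (0.0532 to 0.117). Over all genes, facial minus ventral calls went from 958 to between 390 and 479 without 1 ventral array. Without 1 facial array they were 515 to 716. Dorsal minus ventral calls went from 886 to between 327 and 465 without 1 ventral array, and were 790 to 900 without 1 dorsal array.

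Mib1 differed by -0.39 (adjusted p = 0.0421) in facial and -0.54 (0.0105) in dorsal relative to ventral SKPs, and Neurl1b by -1.33 (0.0369) in facial SKPs. Psen2 was 0.77 higher in dorsal (0.0147) and Maml1 0.72 higher in facial than in ventral SKPs (0.0164). The Mib1 facial call was lost without dorsal 2, any 1 facial or ventral array or MSC 1 or 4 (0.0519 to 0.157), and the dorsal one without ventral 3 (0.0553). Neurl1b lost its call without any 1 facial array or ventral 1 or 3 (0.0799 to 0.141), Psen2 without ventral 1 or 3 (0.0628 and 0.0675), and Maml1 without facial 2 or 3 or ventral 1 or 2 (0.0530 to 0.0684). With the leukocyte covariate, none of the 4 genes lower in facial than in ventral SKPs passed (adjusted p 0.0773 to 0.253). Over all genes the calls of that comparison fell from 958 to 352 with it, so the loss was not particular to these genes. The covariate itself differs between the groups, and its part was not tested.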

How the data were processed

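Per the labels, the authors computed log2 RMA values in Affymetrix Expression Console as a gene-core analysis, and these were taken as deposited. Also limma is listed in the submitters' processing notes; no version or build is given in the sources used here. Array medians were 4.91 to 5.01. Precision is limited by how many arrays there are. Of 29215 probe sets, 15310 carried 1 symbol (323 several, 13582 none in the annotation given), updated by Entrez identifier for 15279 of them. Where a gene had several (527 genes) the one with the highest mean was used, leaving 14506 genes with no filter.

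A fit in limma 3.58.1 (R 4.3.3) gave group means over 13 arrays, with Benjamini-Hochberg adjustment over all genes, two-sided, and a call at adjusted p under 0.05. Adjusted p-values are from this fit. They weigh a difference against the spread between isolates, with every array taken as independent. MSC arrays 1 and 2 differed by more than 2-fold at 0.758% of genes, against 4.61% to 6.58% across the MSC pairs. The 3 ventral SKP arrays differed from each other at 0.421% to 0.813% of genes, though the labels call isolates of a region independent. If arrays of an MSC pair were not independent, adjusted p values of SKPs minus MSCs would be too small. The same holds for comparisons with ventral SKPs if the ventral arrays were not independent. The fit was tested on simulated data of 14506 genes for SKPs minus MSCs. It recovered 85% of 100 genes changed by 1 log2 unit and 97% of 100 changed by 2, with 9 false calls. The simulation drew every array independently, with 1 spread per gene for all groups. It thus cannot show how the fit does where arrays are paired or where groups differ in spread, as for Jag1. Named genes were both ligands, all other canonical ligands, receptors and targets of the list, the other list genes called in a comparison, and the 5 genes most like each ligand. Alternatives were another variance prior, array weights, a filter on low levels, centred arrays, a replicate block, single arrays left out, a leukocyte covariate, SKP arrays alone and, chosen after seeing the data, sets of arrays that stood apart left out. The members and lists were chosen with earlier results of these data known. Promoter sequences are from RefSeq (GRCr8).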

Additional observations from a re-analysis of the deposited data

Results flagged for a closer look

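In 86 groups of 4 or 9 arrays, 4 isolates lay far from the rest of their group, and chance alone marks about 1 group in 20. Dlk2 was 5.86 (log2) on MSC array 4, with the next MSC array at 5.49. Maml3 was 7.17 on MSC array 3, with the next at 6.31. Among SKPs, Dner was 6.48 on facial array 1, with the next at 5.92, and Rbpj was 9.84 on dorsal array 3, with the next at 8.99. Neither Dll1 nor Jag1 had such an isolate.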

How the results depend on the processing

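Of 25 calls on single Notch genes, 10 held under every alternative, and no called gene changed direction. The number of genes lower in SKPs than in MSCs was 5, and it was 3 with the leukocyte covariate, 8 without MSC arrays 1 and 2 and 3 without MSC arrays 3 and 4. The replicate numbers gave no clear sign of pairing (1 of 18 same-numbered pairs correlated above 0.1, range -0.12 to 0.20). With 3 or 4 arrays per group, that check cannot exclude shared animals or batches. With the replicate block 2 genes were lower in SKPs than in MSCs. Notch3, Mib1, Neurl1b, Aph1b and Itch lost their calls with it (adjusted p 0.0572 to 0.159). Genes higher in facial than in ventral SKPs were 1, but 4 with array weights and 2 with SKP arrays alone, without MSC arrays 1 and 2 or without MSC arrays 3 and 4. Those lower were 4, but 0 with the leukocyte covariate and 2 without dorsal array 3 and facial array 3. Without those arrays 2 genes, not 1, were higher in dorsal than in ventral SKPs.

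Leaving out 1 array at a time gave 7 to 12 genes higher and 2 to 5 lower in SKPs than in MSCs. It gave 0 to 2 lower in dorsal than facial, 0 to 2 higher and 0 to 5 lower in facial than ventral, and 0 to 2 higher and 1 to 4 lower in dorsal than ventral SKPs. The SKP minus MSC difference then ranged from 2.09 to 2.32 for Dll1 and from -3.78 to -2.66 for Jag1, which was -4.47 without MSC arrays 1 and 2 and -1.75 without 3 and 4. Dll1 ranged from -1.12 to -0.43 in dorsal minus facial, 0.75 to 1.03 in facial minus ventral (0.90 and called with array weights) and -0.21 to 0.47 in dorsal minus ventral SKPs, where it turned negative without dorsal array 2 and, at -0.015, without ventral array 1. Jag1 in facial minus ventral SKPs turned to 0.11 with the leukocyte covariate. The exact permutation p of Dll1 minus Jag1 ranged from 0.0107 to 0.414. The cause of these changes was not tested. Each ligand has 1 probe set, so the choice of probe set changes nothing.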
